A study of Mus musculus with 16 samples.

Results

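The MYC, MAX and MXD network was followed as 10 genes, Myc, Mycn, Max, Mxd1, Mxd3, Mxd4, Mxi1, Mnt, Mga and Mlx, taken by symbol from the 23410 gene symbols of an RNA sequencing series. The cells were G1E-ER4, an established mouse erythroid progenitor line without endogenous GATA1 that expresses GATA1 joined to the hormone-binding domain of the estrogen receptor. Beta-estradiol carries this fusion protein into the nucleus, and the 8 groups differed by its dose alone: 0 (the control), 12.5, 25, 50, 75, 100, 150 and 200 nM, with n = 2 libraries at each dose and 16 in all. Every group shared the line, the fusion protein and a medium that held serum, erythropoietin and stem cell factor, and a single line stands for a single source of cells. The sources used here give no exposure time. The labels do not say whether the 2 libraries of a dose came from separate cultures, so the p-values measure the spread between these libraries, which may be technical.

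MYC is a basic helix-loop-helix leucine zipper protein that binds the E-box, CACGTG, as a dimer with MAX and turns on genes of ribosome building, metabolism and the cell cycle. The MXD proteins (MXD1, MXD3, MXD4 and MXI1) and MNT compete for MAX at the same sites and bring in the SIN3 histone deacetylase complex, so they are known as antagonists of MYC. MGA pairs with MAX inside a Polycomb complex, and MLX is a MAX-like protein that pairs with some MXD proteins and with the glucose sensors MLXIP and MLXIPL. A decline of MYC is a known step of red cell maturation, when progenitors stop dividing and fill with haemoglobin.

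Of the 10 genes, 9 were among the 10080 genes with enough counts to be tested, and Mycn had 0 counts in all 16 libraries. Between 0 and 200 nM, Myc fell 4.18-fold, while the MXD genes Mxd1, Mxd3, Mxd4 and Mxi1 rose. Mnt and Mga, 2 further MAX partners, fell, Mlx rose by a smaller amount, and Max was at 53.5 ± 3.74 and 53.6 ± 1.07 CPM at the ends of the series (SD, n = 2). CPM is the count relative to the library total after scaling by the trimmed mean of M-values (TMM). All adjusted p-values come from edgeR's quasi-likelihood test with Benjamini-Hochberg adjustment over all genes tested, with calls under 0.05. Each log2 fold change is given ± its standard error.

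Library totals ran from 9393156 to 15802510 counts, with the lowest at 150 nM, replicate 2. The erythroid identity of the line was visible in its markers. All 9 of the erythroid list (among them Gata1, Klf1, Epor, Slc4a1, Alas2, Hba-a2, Hbb-b1 and Tfrc) were called higher at 200 nM. At that dose 40.5% of all genes tested were called higher. The summed level of the 9 went from 2515 to 2611 CPM at 0 nM to 30244 to 30718 CPM at 200 nM. The Gata1 count includes any transcript of the fusion gene that carries its sequence. Markers of megakaryocytes, the sister lineage, summed to 2.71 to 3.07 CPM at 0 nM and 33.4 to 35.8 CPM at 200 nM. Of the 6, 3 were tested and those 3 called higher, against the same 40.5%, and 2 of 6 had 0 counts. Pf4, among those 3, was at 0.373 ± 0.00733 CPM at 0 nM, under the minimum of the filter on low counts. A rise of Pf4 was thus built into its being tested. Markers of granulocytes and macrophages, lymphocytes, fibroblasts and endothelium were below 1 CPM in sum in every library. The part of these marker changes in the results below was not tested. In a bulk sample fewer cells of a type and less RNA per cell cannot be told apart.

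The E-box is the shared binding site of the network, so the 250 bases before the start of each member were searched for it (CACGTG, which reads alike on both strands). RefSeq promoters on GRCm38.p6 were matched for 9 of the 10 members, with 11 starts among them, and Myc was not matched. An E-box lay before 3 members: Mxd4, 219 bases before the start, Mnt, 123 bases before it, and Mlx, 40 bases before it. Those 3 stretches are printed with the E-box in capitals, and the one of Mxd1, which holds none and belongs to the member with the largest rise in CPM, is set beside them. They lie at chr5:34187711-34187960 (Mxd4, minus strand), chr11:74830674-74830923 (Mnt, plus strand), chr11:101087040-101087289 (Mlx, plus strand) and chr6:86669160-86669409 (Mxd1, minus strand).
Mxd4: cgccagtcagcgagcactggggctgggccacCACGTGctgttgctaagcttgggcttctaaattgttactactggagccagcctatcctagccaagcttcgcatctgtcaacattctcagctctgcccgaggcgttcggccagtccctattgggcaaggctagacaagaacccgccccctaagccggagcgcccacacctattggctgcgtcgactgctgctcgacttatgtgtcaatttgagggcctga
Mnt: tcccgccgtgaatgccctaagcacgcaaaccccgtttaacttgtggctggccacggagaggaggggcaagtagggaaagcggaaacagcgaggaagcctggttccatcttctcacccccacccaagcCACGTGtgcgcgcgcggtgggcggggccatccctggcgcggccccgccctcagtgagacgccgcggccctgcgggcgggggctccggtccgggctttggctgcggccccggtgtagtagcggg
Mlx: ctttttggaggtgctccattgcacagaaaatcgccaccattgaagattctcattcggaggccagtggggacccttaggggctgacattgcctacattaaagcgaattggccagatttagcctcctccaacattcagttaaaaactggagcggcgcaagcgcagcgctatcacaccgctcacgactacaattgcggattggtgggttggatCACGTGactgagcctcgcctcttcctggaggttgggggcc
Mxd1: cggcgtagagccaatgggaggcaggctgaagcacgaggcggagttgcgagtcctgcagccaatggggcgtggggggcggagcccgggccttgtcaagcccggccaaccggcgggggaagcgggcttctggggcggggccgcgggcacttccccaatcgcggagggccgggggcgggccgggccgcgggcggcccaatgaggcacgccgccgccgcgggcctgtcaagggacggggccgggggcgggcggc
Over all 32851 RefSeq promoters, 6.02% held this E-box in the same window. Both forms of the GATA site searched on the 2 strands, AGATAA and TGATAA, were in 0 of the 11 member promoters, against 9.99% and 7.94% of all promoters. Of the 3 members with an E-box, Mxd4 and Mlx rose with dose and Mnt fell, so the letters did not go with a single direction.

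Myc (GRCm38 chr15:61985391-61990374, plus strand) encodes the activator at the centre of the network. Its level was 389 and 394 CPM at 0 nM, 398 and 404 CPM at 12.5 nM, and 398 and 402 CPM at 25 nM. It was 299 and 289 CPM at 50 nM, 231 and 232 CPM at 75 nM, 187 and 182 CPM at 100 nM, 132 and 133 CPM at 150 nM, and 96.9 and 90.7 CPM at 200 nM. The 3 lowest doses formed a plateau, and from 50 nM up both libraries of each dose lay below both of the dose before. The log2 fold change against 0 nM was -0.41 ± 0.04 at 50 nM (adjusted p = 1.05e-13), -1.09 ± 0.04 at 100 nM and -2.06 ± 0.04 at 200 nM (adjusted p = 8.46e-40). Each of the 5 steps between neighbouring doses from 25 nM up was called, by -0.33 to -0.50. Among all genes tested, 5.26% had a lower log2 fold change at 200 nM. Pvt1, the non-coding neighbour of Myc, chosen after its values were seen, was at 7.25 ± 0.714 CPM at 0 nM and 6.22 ± 0.194 CPM at 200 nM (log2 fold change -0.22 ± 0.18, adjusted p = 0.260).

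Mycn (chr12:12936093-12941914, minus strand), the MYC relative of embryonic and neural cells, had no count in any library. A floor of 3 counts corresponds to 0.190 to 0.319 CPM per library, or 0.0132 CPM over all 16. Mycl, the remaining member of the MYC family, is listed under its older symbol Mycl1 and also had 0 counts. Myc was therefore the only gene of the family with counts in these libraries. These floors, like other counting intervals on amplified reads, cover counting error alone.

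Max (chr12:76937269-76962201, minus strand) encodes the dimer partner that MYC, the MXD proteins, MNT and MGA all need. Its level was 56.2 and 50.9 CPM at 0 nM, 46.9 and 46.3 CPM at 100 nM, 46.8 and 44.4 CPM at 150 nM, and 52.9 and 54.4 CPM at 200 nM. The 4 libraries at 100 and 150 nM lay below all others, while those at 0 and 200 nM overlapped. The difference from 0 nM was called at 100 nM (-0.20 ± 0.07 log2, adjusted p = 0.0130) and at 150 nM (-0.23 ± 0.08, adjusted p = 0.00637). It was not called at 200 nM (0.00 ± 0.07, adjusted p = 0.968), where Max was called higher than at 150 nM (0.23 ± 0.08, adjusted p = 0.0158). Neither dose passed as a dip below both ends (adjusted p = 0.313 at 100 nM and 0.207 at 150 nM). Without replicate 1 at 0 nM, the difference was not called at 100 nM (-0.13, adjusted p = 0.193) or at 150 nM (-0.17, adjusted p = 0.0971), and without replicate 2 at 100 nM it was not called there (-0.20, adjusted p = 0.0598). With scaling by library size alone, Max was called lower at 200 nM (-0.38, adjusted p = 1.17e-05), in a fit where the median of all genes was -0.36 instead of 0.02.

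Among the antagonists, Mxd1 (chr6:86647042-86669161, minus strand), first known as MAD and induced when many cell types differentiate, had the highest counts. Its level was 18.6 and 16.02 CPM at 0 nM, 17.02 and 17.2 CPM at 12.5 nM, and 19.1 and 16.3 CPM at 25 nM. It was 25.3 and 25.1 CPM at 50 nM, 42.2 and 39.9 CPM at 75 nM, 60.9 and 58.8 CPM at 100 nM, 116 and 108 CPM at 150 nM, and 184 and 198 CPM at 200 nM. The 3 lowest doses overlapped and, as for Myc, every later dose stood clear of the one before. Mxd1 rose by 0.54 ± 0.09 log2 at 50 nM (adjusted p = 4.01e-06), 1.79 ± 0.08 at 100 nM and 3.46 ± 0.08 at 200 nM (adjusted p = 4.85e-38), where the fold was 11.02. The 5 steps from 25 nM up were called, with 0.50 to 0.91 log2 each, and 97.3% of all genes tested had a lower log2 fold change at 200 nM.

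Mxi1 (chr19:53310518-53375810, plus strand) encodes the antagonist also named MXD2. Its level was 6.44 and 7.25 CPM at 0 nM, 5.22 and 5.20 CPM at 12.5 nM, 6.40 and 5.26 CPM at 25 nM, and 7.11 and 6.73 CPM at 50 nM. It reached 9.19 and 8.77 CPM at 75 nM, 10.03 and 10.4 CPM at 100 nM, 15.85 and 16.05 CPM at 150 nM, and 26.0 and 24.5 CPM at 200 nM. All libraries from 75 nM up lay above all at 50 nM and below. The rise was 0.39 ± 0.15 log2 at 75 nM (adjusted p = 0.0276), 1.22 ± 0.15 at 150 nM and 1.88 ± 0.14 at 200 nM (adjusted p = 3.42e-17). The call at 75 nM was lost without replicate 1 at 0 nM (adjusted p = 0.192), without replicate 1 at 75 nM (adjusted p = 0.124), without replicate 2 at 75 nM (adjusted p = 0.0660), with scaling by library size alone (0.27, adjusted p = 0.123) and with no low-count filter (adjusted p = 0.0534), and DESeq2 did not make it (adjusted p = 0.112). Of the steps between neighbours, those from 100 to 150 nM (0.64 ± 0.14) and from 150 to 200 nM (0.66 ± 0.13) were called.

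Mxd3 (chr13:55325168-55329823, minus strand) encodes the MXD protein known from dividing cells in S phase. Its level was 3.62 and 3.78 CPM at 0 nM, 3.60 and 5.14 CPM at 12.5 nM, 4.96 and 3.78 CPM at 25 nM, and 6.35 and 6.79 CPM at 50 nM. It was 10.2 and 12.4 CPM at 75 nM, 11.1 and 12.1 CPM at 100 nM, 14.2 and 15.3 CPM at 150 nM, and 12.1 and 12.3 CPM at 200 nM. Most of the rise was thus between 25 and 75 nM, and the libraries at 150 nM were the highest. Mxd3 rose by 0.83 ± 0.19 log2 at 50 nM (adjusted p = 0.000633), 1.61 ± 0.18 at 75 nM, 1.99 ± 0.18 at 150 nM and 1.72 ± 0.18 at 200 nM (adjusted p = 1.03e-11). The difference between 150 and 200 nM was not called (-0.27 ± 0.16, adjusted p = 0.178). Mxd3 shares 105 bases of exon, 4.43% of its exon length, with Prelid1 on the opposite strand, and these libraries do not keep the strand. Prelid1 was at 236 ± 9.60 CPM at 0 nM and 237 ± 9.35 CPM at 200 nM (0.01 ± 0.04 log2, adjusted p = 0.856).

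Mxd4 (chr5:34173883-34187720, minus strand), an MXD gene of resting and differentiated cells, had the fewest counts of the 9. The libraries held 1 and 8 raw counts at 0 nM, 3 and 1 counts at 12.5 nM, 6 and 3 counts at 25 nM, and 6 and 5 counts at 50 nM. They held 14 and 15 counts at 75 nM, 19 and 23 counts at 100 nM, 33 and 25 counts at 150 nM, and 47 and 72 counts at 200 nM. It had 10 counts or more in the 8 libraries from 75 nM up, through which it passed the filter on low counts, so a rise was built into its being tested. Its level went from 0.283 ± 0.313 CPM at 0 nM to 5.22 ± 1.25 CPM at 200 nM, a log2 fold change of 4.18 ± 0.43 (adjusted p = 3.69e-12). This size rests on the count of 1: without replicate 1 at 0 nM the log2 fold change was 3.34, and without replicate 2 at 0 nM it was 6.21. At 75 nM the call (1.85 ± 0.58, adjusted p = 0.00615) was lost without replicate 1 at 0 nM (1.02, adjusted p = 0.172).

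Mnt (chr11:74830920-74845725, plus strand) encodes an antagonist that many dividing cells keep beside MYC, and unlike the MXD genes it fell. Its level was 12.8 and 13.2 CPM at 0 nM, 11.5 and 14.1 CPM at 12.5 nM, 11.8 and 10.7 CPM at 25 nM, and 10.1 and 11.8 CPM at 50 nM. It was 8.06 and 8.26 CPM at 75 nM, 6.66 and 7.83 CPM at 100 nM, 6.38 and 8.43 CPM at 150 nM, and 5.90 and 6.36 CPM at 200 nM. All libraries from 75 nM up lay below all at lower doses. The log2 fold change was -0.67 ± 0.15 at 75 nM (adjusted p = 0.000178) and -1.08 ± 0.17 at 200 nM (adjusted p = 1.02e-07), and of the single steps the one from 50 to 75 nM was called (-0.42 ± 0.15, adjusted p = 0.0311).

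Mga (chr2:119897228-119969581, plus strand) encodes a large protein with a T-box besides its MAX-binding domain. Its level was 27.0 and 31.2 CPM at 0 nM, 30.9 and 26.6 CPM at 12.5 nM, 27.4 and 27.0 CPM at 25 nM, and 28.4 and 23.8 CPM at 50 nM. It was 22.7 and 24.6 CPM at 75 nM, 23.8 and 22.4 CPM at 100 nM, 20.8 and 22.3 CPM at 150 nM, and 24.2 and 20.8 CPM at 200 nM. The libraries from 75 nM up lay below those at 0 nM but overlapped those at 50 nM. Mga was called lower at 75 nM (-0.30 ± 0.10, adjusted p = 0.0120), 100 nM (-0.33 ± 0.10), 150 nM (-0.44 ± 0.11) and 200 nM (-0.37 ± 0.11, adjusted p = 0.00156), and at none of the steps between neighbours. The call at 200 nM was lost without replicate 2 at 200 nM (-0.27, adjusted p = 0.0570). Without replicate 2 at 0 nM the calls at 75 nM (adjusted p = 0.205) and 100 nM (adjusted p = 0.110) were lost, and without replicate 1 at 75 nM the one at 75 nM (adjusted p = 0.120).

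Mlx (chr11:101087277-101092207, plus strand) encodes the MAX-like partner. Its level was 46.4 and 46.9 CPM at 0 nM, 45.3 and 48.9 CPM at 12.5 nM, 50.8 and 47.9 CPM at 25 nM, and 43.3 and 46.6 CPM at 50 nM. It was 52.4 and 50.4 CPM at 75 nM, 53.4 and 46.1 CPM at 100 nM, 59.7 and 62.5 CPM at 150 nM, and 70.1 and 62.7 CPM at 200 nM. The libraries at 150 and 200 nM lay above all others. The log2 fold change was 0.39 ± 0.08 at 150 nM (adjusted p = 1.27e-05) and 0.51 ± 0.07 at 200 nM (adjusted p = 3.30e-08), but with scaling by library size alone it was 0.11 (adjusted p = 0.171) and 0.13 (adjusted p = 0.114) and not called. Mlx shares 385 bases, 19.3% of its exon length, with Psmc3ip on the opposite strand. Psmc3ip went from 37.6 ± 0.915 CPM at 0 nM to 30.7 ± 0.994 CPM at 200 nM (-0.29 ± 0.09, adjusted p = 0.00296). The part of reads from the shared bases in the Mlx count was not tested.

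**Figure D1:**
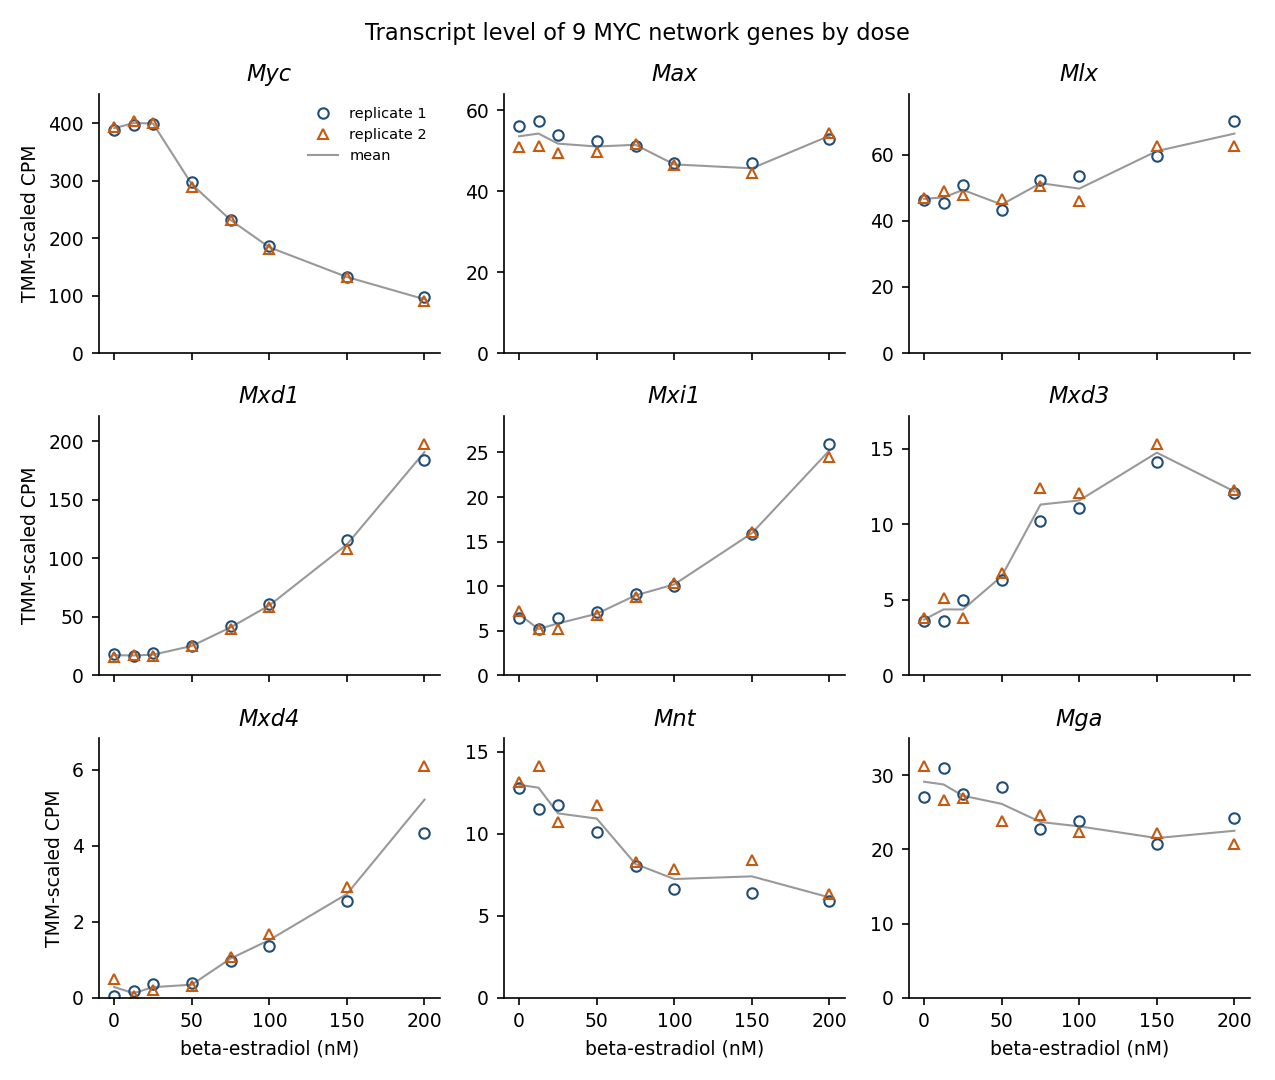
Level of 9 network genes in each library (TMM-scaled CPM, linear axis from 0, a different range in each panel) against the dose of beta-estradiol (nM); circles are replicate 1, triangles replicate 2 and the line the mean of the 2. Myc fell from 389 and 394 CPM to 96.9 and 90.7 CPM while Mxd1 rose from 18.6 and 16.02 CPM to 184 and 198 CPM, and Max stayed between 44.4 and 57.2 CPM.

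Counted over the doses, the members were read against the share of all 10080 genes called. At 12.5 nM, 0 of 9 members were called, where 0.278% of all genes were called higher and 0.228% lower; 1 member, Mxi1, had an unadjusted p under 0.05. At 25 nM, 0 of 9 were called against 3.0% higher and 1.02% lower, none had an unadjusted p under 0.05, and DESeq2 also called 0 at both doses. At 50 nM, Mxd1 and Mxd3 were higher and Myc lower, against 18.8% and 14.7% of all genes. These 3 were thus the members called at the lowest dose, which does not show that the others had not moved. At 75 nM, 4 were higher (Mxi1 and Mxd4 joined) and 3 lower (Mnt and Mga joined), against 29.0% and 26.9%. Mxd4, which was tested only through its counts from 75 nM up, had a rise built into its test, and without it the counts of higher members against 0 nM are 1 less from this dose up. At 100 nM, 4 were higher and 4 lower, with Max, against 34.1% and 32.5%. At 150 nM, 5 were higher, with Mlx, and 4 lower, against 37.7% and 36.6%. At 200 nM, 5 of 9 were higher and 3 of 9 lower, against 40.5% higher and 39.5% lower. With calls this common in the background, the share of members called at the higher doses does not set the network apart from other genes. The direction was not the same across members, as the MXD genes were higher and Myc, Mnt and Mga lower. Of the 9 members, all were called in the test of all doses together, where 86.3% of all genes were, and Max was the nearest to the threshold (adjusted p = 0.0135). Without replicate 2 at 150 nM, 8 of 9 were called.

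**Figure D2:**
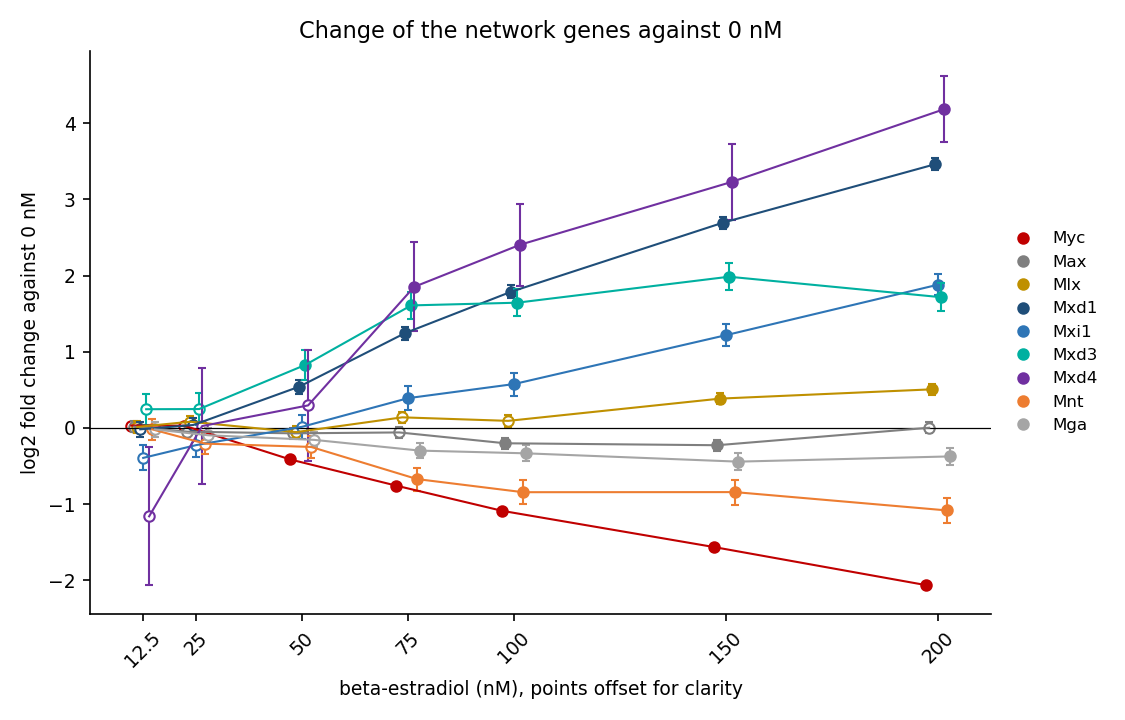
Log2 fold change of 9 network genes against 0 nM by dose of beta-estradiol (nM), with bars of 1 standard error, filled points where the change was called and open points where it was not; points are offset sideways for clarity. The lines part from 50 nM up, with Mxd4 and Mxd1 ending at 4.18 and 3.46 and Myc at -2.06.

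Between neighbouring doses, 0 of 9 members differed from 12.5 to 25 nM, where 1.09% of all genes were called and 0 members had an unadjusted p under 0.05. From 25 to 50 nM, 3 members were called (Myc, Mxd1 and Mxd3; 26.2% of all genes). From 50 to 75 nM, 6 were called (32.3%): Myc and Mnt lower, and Mxd1, Mxd3, Mxd4 and Mlx higher. Leaving out either library at 75 nM, replicate 1 or replicate 2, lowered this count to 3. From 75 to 100 nM, 2 were called (27.5%), Myc and Mxd1. From 100 to 150 nM, 4 were called (40.9%): Myc lower, and Mxd1, Mxi1 and Mlx higher. From 150 to 200 nM, 5 were called (39.3%): Myc lower, and Max, Mxd1, Mxi1 and Mxd4 higher, or 3 without replicate 2 at 200 nM. Myc and Mxd1 were thus the members called at every step from 25 nM up. Mxd4, tested only through its counts from 75 nM up, had a rise built into its test. It is counted among the members called from 50 to 75 nM and from 150 to 200 nM. No member peaked or dipped between the ends (0 of 9, with 2, Max and Mxi1, at an unadjusted p under 0.05), against 4.61% of all genes.

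The half-maximal dose, the midpoint of a gene's log2 change between 0 and 200 nM, differed among the 6 members changed at least 1.5-fold with a call. It is given with its range over the 256 series that take 1 library at each dose, and no test was made of it. Mxd3 came first, at 53.4 nM (50.7 to 56.8), and Mnt next, at 67.2 nM (58.8 to 71.2). Mxd4 followed at 80.5 nM with a wide range (67.4 to 110). A rise of Mxd4 was built into its being tested, and its level at 0 nM rests on 1 and 8 counts. Myc at 94.9 nM (91.7 to 98.4) and Mxd1 at 97.2 nM (92.2 to 101) had overlapping ranges, so the midpoints of the 2 genes were not separable in dose. Mxi1 came last, at 120 nM (114 to 126). Among all genes eligible by the same rule, the 2921 that were higher had a median of 87.9 nM (quartiles 67.9 and 109) and the 2750 that were lower one of 106 nM (82.8 and 124). Mxd3 and Mnt lay below the lower quartile of their direction and Mxi1 above the upper quartile, and Myc and Mxd1 lay between the quartiles. The range of Mxd4 ran past both quartiles, so its place among the genes that rose was not resolved.

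**Figure D3:**
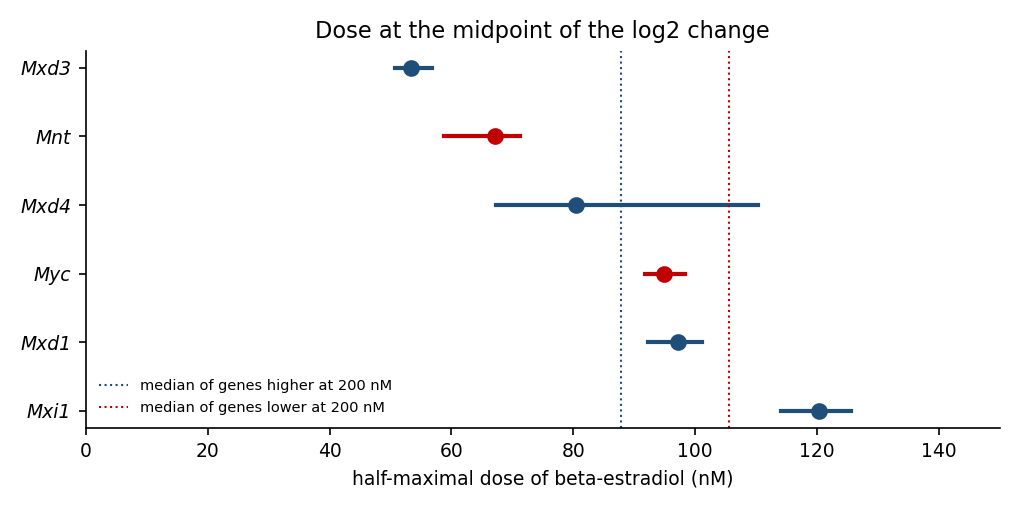
Half-maximal dose of beta-estradiol (nM) of 6 network genes, blue for genes that rose and red for genes that fell; the point is the value from the mean of both libraries and the bar the range over 256 choices of 1 library a dose, with dotted lines at the medians of all genes that rose or fell. Mxd3 stands at 53.4 nM and Mxi1 at 120 nM, with Myc and Mxd1 at 94.9 and 97.2 nM.

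Levels of different genes were compared per length of exon, as CPM per kilobase. At 0 nM, Myc was at 144 ± 1.38 CPM per kilobase (SD, n = 2), Mlx at 23.3 ± 0.173, Max at 14.9 ± 1.04, Mnt at 2.81 ± 0.0552, Mxd1 at 2.45 ± 0.257, Mga at 1.90 ± 0.195, Mxd3 at 1.56 ± 0.0492, Mxi1 at 1.00 ± 0.0841 and Mxd4 at 0.0333 ± 0.0369. On this length the libraries of neighbouring genes in that order did not overlap, but the order depends on the length: with the longest annotated transcript Max (27.6 ± 1.93) stood above Mlx (23.7 ± 0.176), Mxd1 (3.71 ± 0.389) above Mnt (2.83 ± 0.0556), and Mxd3 and Mga overlapped. At 200 nM, Myc was at 34.5 ± 1.63, Mlx at 33.2 ± 2.62, Mxd1 at 27.0 ± 1.43, Max at 14.9 ± 0.297, Mxd3 at 5.14 ± 0.0645, Mxi1 at 3.70 ± 0.155, Mga at 1.47 ± 0.160, Mnt at 1.32 ± 0.0700 and Mxd4 at 0.615 ± 0.148. On this length the libraries of Myc and Mlx, and those of Mga and Mnt, overlapped at 200 nM and did not differ beyond their spread. With the longest transcript Mxd1 (40.9 ± 2.17) and Myc (40.1 ± 1.89) overlapped at the top at 200 nM, both above Mlx (33.8 ± 2.67). Mga (1.61 ± 0.176) then stood above Mnt (1.33 ± 0.0706) without overlap, and Mnt overlapped Mxd4 (1.13 ± 0.271).

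As a share of the summed CPM per kilobase of the MAX partners (Myc, Mxd1, Mxd3, Mxd4, Mxi1, Mnt and Mga, with Mycn at 0), Myc held 93.7 ± 0.0431% at 0 nM, 93.8 ± 0.337% at 12.5 nM and 94.0 ± 0.603% at 25 nM. Its share was 90.4 ± 0.279% at 50 nM, 84.8 ± 0.367% at 75 nM, 78.9 ± 0.534% at 100 nM, 63.8 ± 0.0705% at 150 nM and 46.8 ± 2.06% at 200 nM, where the 2 libraries gave 48.3% and 45.4%. Among the other partners Mxd1 gained the most in share, but the partner sum itself fell. In CPM per kilobase, Myc went from 144 to 34.5 and Mxd1 from 2.45 to 27.0 between 0 and 200 nM. The share of Mxd1 went from 1.59 ± 0.183% at 0 nM to 9.85 ± 0.137% at 100 nM and 36.6 ± 2.06% at 200 nM. Mxd3 went from 1.01 ± 0.0218% to 8.14 ± 0.439% at 150 nM and 6.97 ± 0.110% at 200 nM, and Mxi1 from 0.652 ± 0.0482% to 5.02 ± 0.194%. Mnt held 1.83 ± 0.0176% and 1.80 ± 0.101% at the ends, but 1.58 ± 0.0158% and 1.37 ± 0.0682% with the longest transcript and 2.81 ± 0.0177% and 1.72 ± 0.0722% without division by length.

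The ratio of the summed antagonists (Mxd1, Mxd3, Mxd4, Mxi1 and Mnt) to Myc, on the same scale, was 0.0545 ± 0.000735 at 0 nM, 0.0902 ± 0.00503 at 50 nM, 0.162 ± 0.00414 at 75 nM, 0.245 ± 0.00912 at 100 nM, 0.539 ± 0.00302 at 150 nM and 1.10 ± 0.0969 at 200 nM (1.03 and 1.16 in the 2 libraries). From 50 nM up, the libraries of each dose stood above those of the dose before. The partner sum fell from 154 ± 1.54 to 73.7 ± 0.233 CPM per kilobase, and Max relative to that sum went from 0.0967 ± 0.00772 to 0.202 ± 0.00467. These are transcript levels, and protein was not measured. The values depend on the length used: with the longest annotated transcript the ratio at 200 nM was 1.38, the Myc share 41.3% and the Mxd1 share 42.1%, and without division by length they were 2.56, 26.4% and 53.6%. The partner sum went from 180 to 97.1 with the longest transcript and from 462 to 356 CPM without division by length, and Max relative to it from 0.153 to 0.285 and from 0.116 to 0.151.

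**Figure D4:**
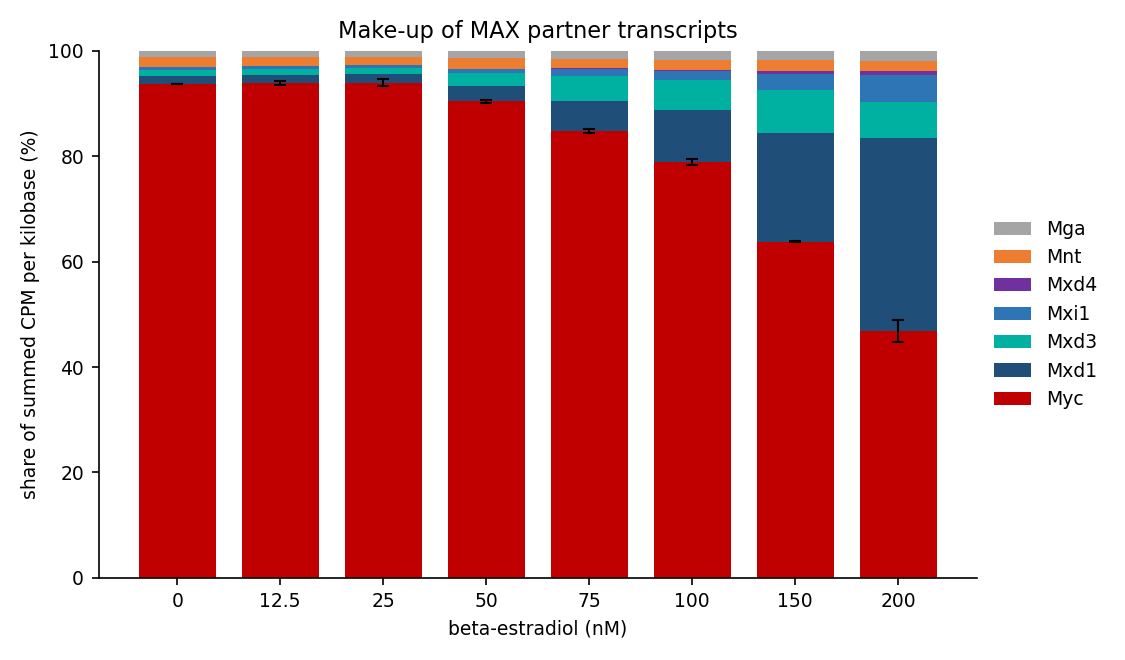
Share of the summed CPM per kilobase of the MAX partner transcripts (%) held by each gene at each dose of beta-estradiol (nM), mean of 2 libraries stacked, with the SD drawn on the Myc share. Myc falls from 93.7% to 46.8% and Mxd1 grows from 1.59% to 36.6%.

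Genes that MYC is known to activate, a list of 66 of which 64 were tested, were mostly lower at 200 nM: 59 fell, 3 rose and 2 were not called, where 39.5% of all genes fell and 40.5% rose. The list's median was -1.46 log2, beside 0.02 for all genes. Hspd1, a mitochondrial chaperonin, fell from 1480 ± 1.79 to 325 ± 4.52 CPM (-2.19 ± 0.03 log2), and Ldha, lactate dehydrogenase, from 2393 ± 53.6 to 397 ± 15.5 CPM (-2.59 ± 0.03). Nolc1 and Npm1, both nucleolar, fell by 2.35 and 1.53 on the log2 scale. The 3 that rose were Map3k6, a stress kinase (1.71 ± 0.13), Sord, sorbitol dehydrogenase (1.47 ± 0.04), and Aimp2, a scaffold of the tRNA synthetase complex (0.28 ± 0.05). Plk1 (0.02) and Odc1 (-0.12) were not called, and are named after their values were seen. At 25 nM, 2 of the 64 were higher and 0 lower, against 3.0% and 1.02% of all genes. At 50 nM, 7 were higher and 30 lower (median -0.09), against 18.8% and 14.7%, and at 100 nM, 5 were higher and 53 lower (median -0.60), against 34.1% and 32.5%. The counts of lower genes thus grew from the dose at which Myc itself was first lower. The summed erythroid markers rose over the same doses, from 3009 to 3058 CPM at 25 nM to 6052 to 6248 CPM at 50 nM. Their rise began earlier, from 2515 to 2611 CPM at 0 nM. At 25 nM, 7 of the 9 markers were already called higher, where 0 of 9 network members were called. The part of Myc or of the marker changes in the list was not tested.

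Of 9 genes that MYC is known to repress, 4 were tested and all 4 rose, where 40.5% of all genes rose; the other 5 had 0 to 6 counts over all libraries. Of these 3 encode cyclin-dependent kinase inhibitors. Cdkn1a, which encodes p21, rose from 112 ± 2.10 to 586 ± 3.73 CPM (2.38 ± 0.04 log2). Cdkn1b, which encodes p27, rose from 9.67 ± 0.498 to 75.3 ± 2.10 CPM (2.96 ± 0.16), and Cdkn2c, which encodes p18, from 7.40 ± 0.0574 to 64.3 ± 0.626 CPM (3.12 ± 0.11). Gadd45a, a growth arrest gene, rose from 2.36 ± 0.569 to 17.5 ± 2.77 CPM (2.89 ± 0.19). The 4 were already called higher at 50 nM, as were 18.8% of all genes.

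Of 18 genes of the SIN3 and histone deacetylase complex, the corepressor that MXD proteins and MNT recruit, 6 rose, 6 fell and 6 were not called at 200 nM (median -0.06), near the 40.5% and 39.5% of all genes, but 11 were lower with scaling by library size alone. The 2 scaffold genes moved apart: Sin3a fell from 92.9 ± 5.65 to 46.9 ± 2.65 CPM (-0.99 ± 0.07) and Sin3b rose from 81.9 ± 4.34 to 252 ± 4.36 CPM (1.62 ± 0.05). Hdac1, a deacetylase, fell by 1.20 and Rbbp7, a histone-binding subunit, by 1.48 on the log2 scale.

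Of 13 cofactors through which MYC acts on chromatin and elongation, 7 fell and 5 rose (median -0.48), against 39.5% and 40.5% of all genes, or 9 and 3 with scaling by library size alone. The ATPase pair of the TIP60 and INO80 complexes fell, Ruvbl1 from 181 ± 0.605 to 42.9 ± 1.33 CPM (-2.08 ± 0.06) and Ruvbl2 from 674 ± 11.1 to 108 ± 2.50 CPM (-2.65 ± 0.04). Actl6a, an actin-like subunit of the same complexes (-1.44 ± 0.04), and Wdr5, which anchors MYC to chromatin (-1.504 ± 0.05), fell too.

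Of 12 genes of MYC protein turnover, 5 fell and 4 rose at 200 nM (median -0.10), near the 39.5% and 40.5% of all genes, or 8 and 2 with scaling by library size alone. Among them Fbxw7, the ubiquitin ligase subunit that marks phosphorylated MYC for destruction, rose from 9.66 ± 0.382 to 50.5 ± 5.43 CPM (2.38 ± 0.11). Skp2, another ligase subunit for MYC, fell from 68.9 ± 0.255 to 9.36 ± 0.180 CPM (-2.88 ± 0.10). Usp36, a nucleolar deubiquitinase that stabilises MYC, fell by 1.76, and Set, an inhibitor of the phosphatase PP2A, by 2.87 on the log2 scale. Ppp2r5a, a PP2A subunit directed at MYC, rose by 1.36 ± 0.18, and Aurka, a mitotic kinase, by 0.40 ± 0.04. Gsk3a, a kinase that phosphorylates MYC for FBXW7, rose by 0.86 ± 0.23, from 2.86 ± 0.0562 to 5.19 ± 0.567 CPM. Gsk3b, the other GSK3 gene of the list, had far more counts, at 115 ± 0.990 and 115 ± 9.37 CPM. It was not called (-0.004 ± 0.089, adjusted p = 0.970) and is named after its values were seen.

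Around MGA, 10 genes of its Polycomb complex were tested, of which 7 fell, 1 rose and 2 were not called (median -1.05), against 39.5% of all genes lower and 40.5% higher. L3mbtl2, a histone reader, fell from 125 ± 1.85 to 44.0 ± 0.422 CPM (-1.51 ± 0.06), and Tfdp1, the E2F partner, from 131 ± 6.40 to 51.2 ± 5.03 CPM (-1.36 ± 0.06). Cbx3, a heterochromatin protein (-1.27 ± 0.08), and Wdr5 (-1.504 ± 0.05), which both also stand in a list above, fell as well. The one that rose was Ring1, a ubiquitin ligase, with 2.45 ± 0.523 CPM at 0 nM and 7.30 ± 4.06 CPM at 200 nM (1.58 ± 0.29). Of 11 germline genes that the complex is known to silence, 0 had enough counts to be tested, 6 had 0 counts and the highest had 11 counts over all 16 libraries.

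Of the glucose sensors that pair with MLX, 1 was measured well enough to test. Mlxip, which encodes MondoA, was at 18.6 ± 4.34 CPM at 0 nM and 20.4 ± 2.77 CPM at 200 nM and was not called (0.13 ± 0.13, adjusted p = 0.365), though without replicate 1 at 0 nM it was called higher. Mlxipl, which encodes ChREBP, had 2 counts in all. Of the 4 targets listed, Txnip, the thioredoxin-binding protein that limits glucose uptake, rose from 9.13 ± 0.524 to 54.7 ± 3.88 CPM (2.58 ± 0.11). Pklr, the red cell and liver pyruvate kinase, rose from 409 ± 4.96 to 641 ± 13.9 CPM (0.65 ± 0.03). Klf10, a zinc finger repressor, fell from 23.6 ± 1.25 to 3.36 ± 0.324 CPM (-2.81 ± 0.17), and Arrdc4 had 0 counts.

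**Figure D5:**
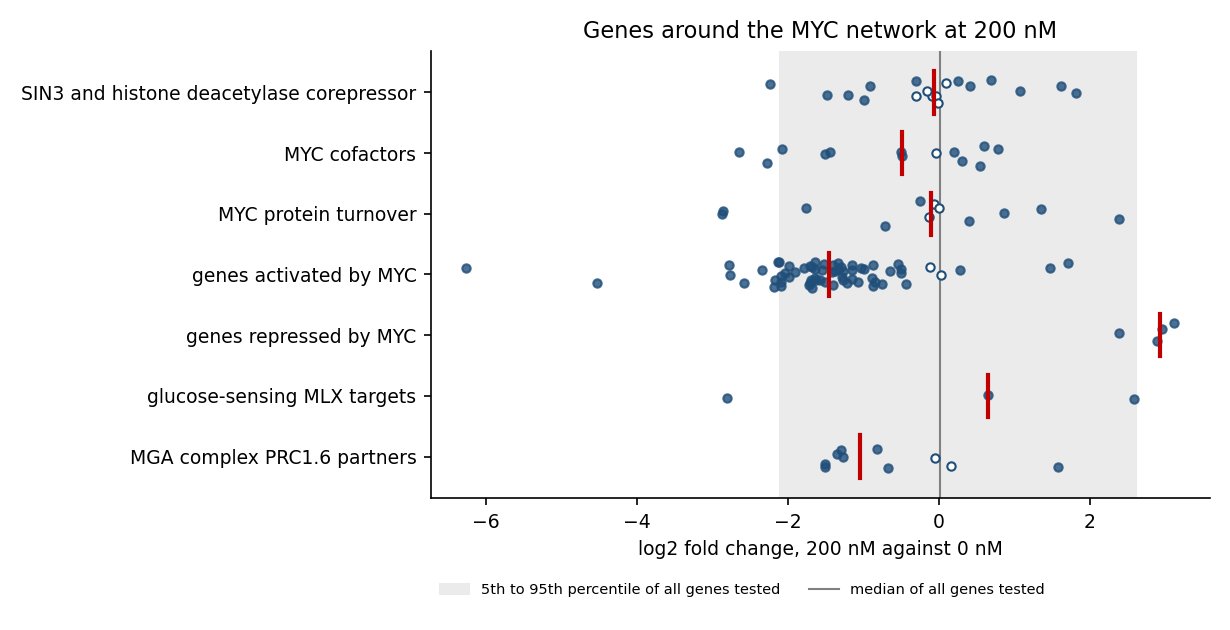
Log2 fold change at 200 nM against 0 nM of each tested gene in 7 lists around the network; filled points were called, open points were not, red bars are the list medians, the grey line is the median of all genes tested and the grey band their 5th to 95th percentile (-2.10 to 2.61). Genes activated by MYC centre at -1.46 and the 4 tested genes repressed by MYC at 2.93; points are spread vertically for clarity.

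The genes most like each member were found by Pearson's r of log2 CPM over the 16 libraries, among 6505 or 6506 genes whose mean reached 20 CPM at the highest point. All libraries share the dose series, so high values are common, and r is a description here. Nearest to Myc were Car1, a carbonic anhydrase (r = 0.998), Tmem9 (0.998) and Ccnd2, the cyclin D2 gene that also stands in the MYC-activated list (0.997). Among the genes nearest to Mxd1 were Atp6v1d (0.998) and Gnas (0.998). Myc and Mxd1 themselves had r = -0.997. Nearest to Mxi1 were Mdm4 (0.992), Fam134c (0.989) and Hbb-y, an embryonic globin (0.989). Hbb-y was at 0.0631 CPM at 0 nM and 140 CPM at 200 nM. A gene under 20 CPM at 0 nM, like this one, met the minimum only at higher doses, so a rise was built into its being searched.

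Mxd3 was nearest to Map3k6 (0.985), one of the 3 MYC-activated genes that rose, then Sec23ip (0.977) and Vps25 (0.977). Mxd4 was nearest to Dyrk1b (0.978), Dok1 (0.973) and Gadd45g (0.973). Among the members that fell, Mnt was nearest to Slc39a6 (0.965), Itpripl1 (0.960) and Glud1 (0.956), and Mga to Usp34 (0.924), Sept8 (0.917) and Zfp148 (0.915). Among the genes nearest to Mlx were Eif1b (0.948) and Vezt (0.947). Max had the weakest neighbours, Gne (0.825), Hs1bp3 (0.787) and Tmtc3 (0.779).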

How the data were processed

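RNA of 16 G1E-ER4 libraries was prepared with Smart-seq2, per the labels' protocols, which reads polyadenylated transcripts over their length without strand or molecular identifiers. Rn45s, a ribosomal RNA precursor, still held 9.57% of all counts at 0 nM and 15.0% at 200 nM. The part of this share in the results with scaling by library size alone was not tested. The table deposited by the authors holds raw counts by gene symbol, made with bcl2fastq, STAR and the mm10 build per the submitters' processing notes. For versions, the counter and shared reads nothing is stated in the sources used here. The counts were tested in R 4.3.3 with edgeR 4.0.16: filterByExpr by dose (count minimum 10), TMM scaling, a robust quasi-likelihood fit of all 16 libraries with dose as a factor, and Benjamini-Hochberg adjustment within each contrast. A peak or dip took the larger of the p-values against 0 and 200 nM, adjusted over genes and doses. The standard error is the log2 fold change divided by the square root of F. The fit was tested on simulated data. DESeq2 1.42.0, other scalings, no filter, a replicate block and each library left out were the alternatives.

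Half-maximal doses used log2 CPM with a prior count of 2, made monotone over dose. Gene positions and exon lengths came from GENCODE M21 on GRCm38, and promoters from RefSeq. Named genes were the 10 members and, from each list, all of up to 5 measured genes or the 4 with the smallest adjusted p at 200 nM, with up to 4 called against the list's direction. For each member the 3 nearest genes by r were named, leaving out unnamed models, pseudogenes and a few genes that are not reported here. Members and lists (176 entries, 4 matched under an older symbol) were chosen with earlier results of these data known. Replicates of a dose differed by more than sampling noise (variance ratio 1.68 to 3.97).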

Additional observations from a re-analysis of the deposited data

How the results depend on the processing

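The number of members called at each dose against 0 nM stayed within 1.5 times the reported count under every alternative tried. Leaving out each library gave 3 to 6 members called from 50 to 75 nM, 3 to 5 from 150 to 200 nM, and 0 to 1 further network members higher at 200 nM. Scaling by library size alone moved the median log2 fold change of all genes at 200 nM from 0.02 to -0.36 and the calls from 4086 higher and 3977 lower to 2819 and 5396. Under it 3 MYC cofactors and 2 turnover genes were higher, and 8 turnover genes and 11 SIN3 complex genes lower. Max at 200 nM, 0.00 as reported, took the opposite sign with library size alone (-0.38), DESeq2 size factors in edgeR (-0.0050), no low-count filter (-0.027), a fit of 0 and 200 nM only (-0.011) and DESeq2 (-0.010), and ran from -0.081 to 0.061 with each library left out; it was called with library size alone and in none of the others. The cause of these changes was not tested.

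The ratio of MXD and MNT to Myc transcripts was 0.0602 at 0 nM and 1.38 at 200 nM with the longest transcript length, and 0.105 and 2.56 with no division by length. The Myc share was 93.2% and 41.3%, and 84.8% and 26.4%, under the same 2 settings, and 94.8% at 0 nM without Mga. These follow from the lengths and genes put in.

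No strong pairing by replicate number was seen: over 28 pairs of doses, same-numbered libraries had deviations correlated at -0.325 to 0.231, with 2 above 0.1. These correlations cannot show that the libraries were unpaired, and the labels do not say. A replicate block left 3, 7, 8, 9 and 8 members called at 50, 75, 100, 150 and 200 nM, the counts reported without it. Depth limits Mxd4, with 1 to 8 counts per library up to 50 nM.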
